A study of Mus musculus with 10 samples.

Results

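The genes described here encode the enzymes that attach sugar acids or sulfate to drugs, hormones and lipids, and the pumps that carry the products out of the cell. They were chosen by gene symbol: every gene of the Ugt1, Ugt2, Ugt3, Ugt8, Sult, Abcb, Abcc and Slc47a series in the probe annotation, plus Abcg2. The rule found 41 genes among the 16475 measured: 9 UGT, 12 SULT, 8 ABCB and 10 ABCC genes, with Slc47a1 and Abcg2. Ugt1 genes were not analysed here. The tissue was kidney cortex from which glomeruli had been removed, taken at 24 weeks of age from mice of the BKS background. The groups were 5 diabetic db/db mice and 5 non-diabetic db/m littermates. The db allele disables the leptin receptor throughout the body; db/db mice are homozygous and become obese and diabetic, and db/m mice carry 1 copy. Each mouse gave 1 Affymetrix mouse array. The series concerns metabolism in tissues that suffer diabetic complications, and db/db was compared with db/m family by family.

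UDP-glucuronosyltransferases (UGTs) sit in the endoplasmic reticulum and join a sugar, usually glucuronic acid from UDP-glucuronic acid, to lipophilic molecules. Cytosolic sulfotransferases (SULTs) transfer sulfate from the activated donor PAPS. In the proximal tubule, the main site of drug secretion in the kidney, the conjugates leave through ATP-driven pumps of the ABCB, ABCC and ABCG families, and organic cations leave through the proton exchanger encoded by Slc47a1.

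The arrays differed in ways that touch the results. Values are log2 expression levels with array medians of 8.46 to 8.66, so a change of 1 is a 2-fold difference. Levels of different genes come from different probes. They are compared only to call genes dim and to pick the brightest member of a family. The array of db/db 1 stood apart, with a Pearson r across genes of 0.938 to 0.962 with the others, which correlated with each other at 0.985 to 0.996. Its mean over 7 leukocyte markers was 11.35, against 6.68 to 8.93 in db/db 2 to 5 and 7.25 to 7.66 in db/m. Results that rest on this mouse are given with and without it. The labels give no sex; the Y-linked gene Eif2s3y lay between 11.69 and 12.06 in all 10 arrays, and Xist, which is active in female cells, was dim in all of them.

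Of the 41 genes, 9 passed the test with all 10 arrays (limma with Benjamini-Hochberg adjustment over all 16475 genes, adjusted p under 0.05). The pumps and sulfotransferases that passed were higher in db/db, and the UGTs that passed were lower. Higher were Abcc4, Abcc1, Abcb1a, Sult1a1 and Sult5a1, and lower were Ugt8a, Ugt2a3, Ugt2b37 and Ugt2b38. The share was 22% of the 41 genes, beside 6.51% of all genes, of which 2.96% were higher and 3.54% lower. Of the 41 genes 4 passed with a change of at least 2-fold, beside 238 of all 16475 genes (1.44%). In 10 of the 41 genes the groups did not overlap, beside 10.2% of all genes. Without db/db 1 the test called 12 of the 41, or 29.3%, beside 12.8% of all genes. In that fit 8 were higher (6.84% of all genes) and 4 were lower (5.93% of all genes), and 14 had groups that did not overlap (15.4% of all genes). All 9 genes remained called with the same sign, and Abcc3, Abcc2 and Ugt2b34 joined them. The median change over the 41 genes was -0.05, and 0.02 without db/db 1, beside -0.03 and -0.01 over all genes. Fewer cells of a type and less RNA per cell cannot be told apart in these tissue samples.

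**Figure D1:**
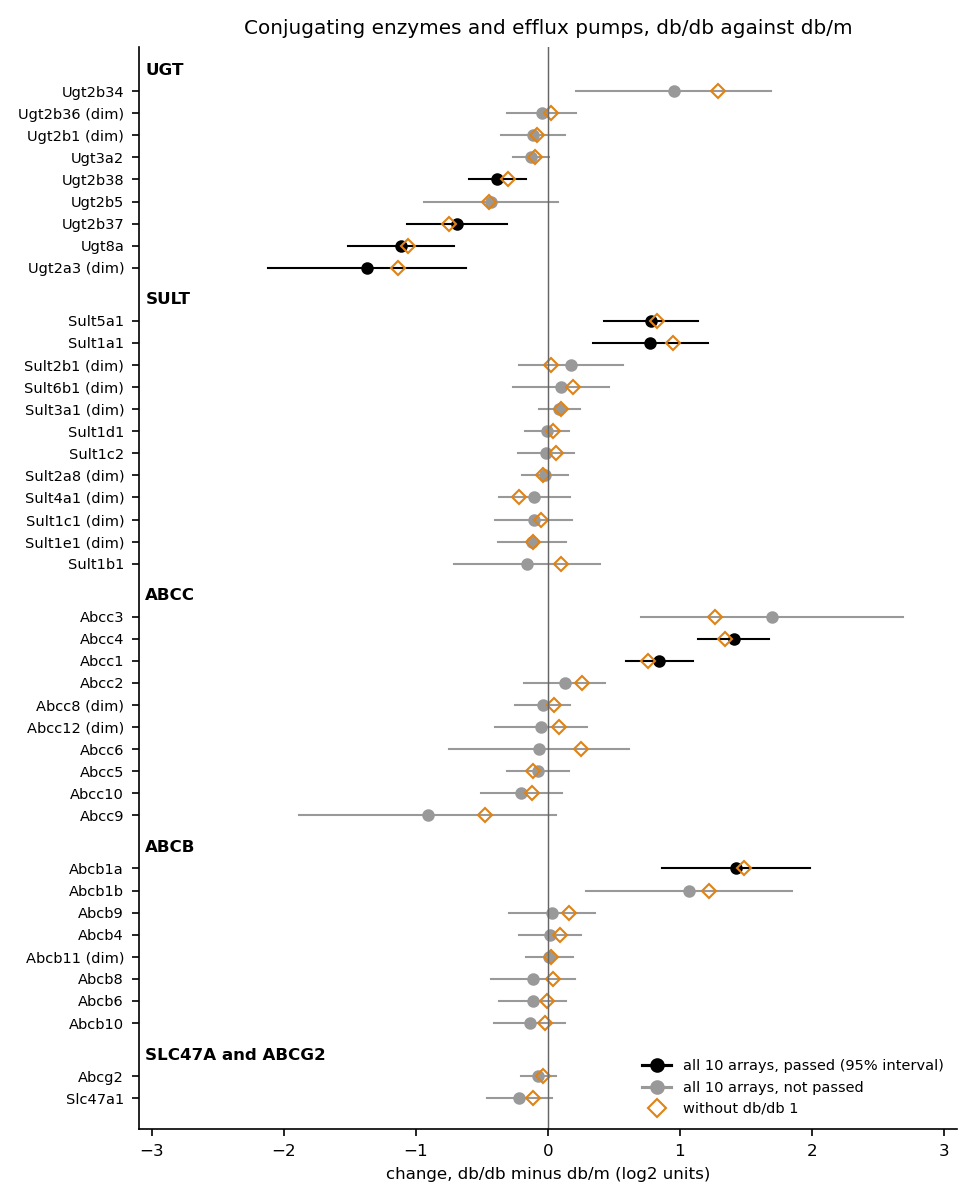
Change of each of the 41 genes, db/db minus db/m in log2 units (horizontal axis), by family. Filled circles with 95% intervals are the fit with all 10 arrays, black where the adjusted p passed 0.05 and grey where it did not, and open diamonds are the fit without db/db 1; Abcc4, Abcb1a and Abcc1 lie to the right and Ugt8a, Ugt2a3 and Ugt2b37 to the left.

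In the ABCC family 2 of 10 genes rose and 0 fell with all arrays, beside 2.96% of all genes higher and 3.54% lower. The median change of the 10 was -0.05. Without db/db 1, 4 rose and 0 fell, beside 6.84% and 5.93% of all genes, and the median change was 0.17. Abcc4 encodes MRP4, a pump of the luminal membrane of the proximal tubule that carries urate, cyclic nucleotides and organic anions. It measured 12.34, 11.76, 12.25, 12.12 and 11.95 in the 5 db/db mice and 10.89, 10.56, 10.55, 10.63 and 10.75 in the 5 db/m mice. Every db/db mouse was above every db/m mouse. The change was 1.41 ± 0.12 (standard error), a 2.65-fold rise (limma adjusted p = 0.000357), and 1.34 without db/db 1. Abcc1 encodes MRP1, which exports glutathione conjugates and leukotriene C4. It measured 9.60, 9.05, 9.28, 9.08 and 9.28 in db/db and 8.44, 8.41, 8.36, 8.61 and 8.24 in db/m, again without overlap. It rose 1.80-fold (0.85 ± 0.11, limma adjusted p = 0.00357), and its change was 0.76 without db/db 1. Neither gene lost its call when any single array was dropped.

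For Abcc2 the call turned on which mice were included, and for Abcc3 also on the processing. Abcc3 encodes MRP3, a basolateral pump for glucuronides. It measured 9.65, 8.25, 7.08, 6.86 and 7.77 in db/db and 6.39, 6.19, 6.30, 6.13 and 6.10 in db/m. The groups did not overlap, but the db/db values spread over a wide range with db/db 1 at the top. With all arrays its change of 1.70 ± 0.45 did not pass (limma adjusted p = 0.0508), and without db/db 1, at 1.27 ± 0.25, it did (adjusted p = 0.00976). It also passed without db/db 4 (1.96), and not without any other single array. With all 10 arrays it passed under 5 other processing settings, with adjusted p of 0.0154 to 0.0497. Abcc2 encodes MRP2, the luminal pump for conjugates, which works beside MRP4. It measured 12.05 in db/db 1 and 12.65 to 12.80 in the other db/db mice, against 12.25 to 12.53 in db/m. Its change was 0.13 ± 0.14 with all arrays (limma adjusted p = 0.642) and 0.26 ± 0.07 without db/db 1 (adjusted p = 0.0479), and db/db 1 was the lowest of all mice for Abcc2 and the highest for Abcc3.

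The other 6 ABCC genes did not pass in either fit. Abcc9, a potassium channel subunit gene expressed in vessel wall and mesenchymal cells, had a wide spread, at -0.91 ± 0.44 (limma adjusted p = 0.261). It was at 5.99 in db/db 1 and 7.87 to 8.65 in the other db/db mice, against 8.22 to 9.18 in db/m, and the change was -0.47 without db/db 1. Abcc6, which in liver takes part in ATP release, was at 6.26 in db/db 1 and 7.52 to 8.04 in the other db/db mice, against 7.35 to 7.80 in db/m. The cyclic nucleotide pump gene Abcc5 and Abcc10 had changes of -0.08 and -0.20. Abcc8, a channel subunit gene of insulin-secreting cells, and Abcc12 were dim.

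**Figure D2:**
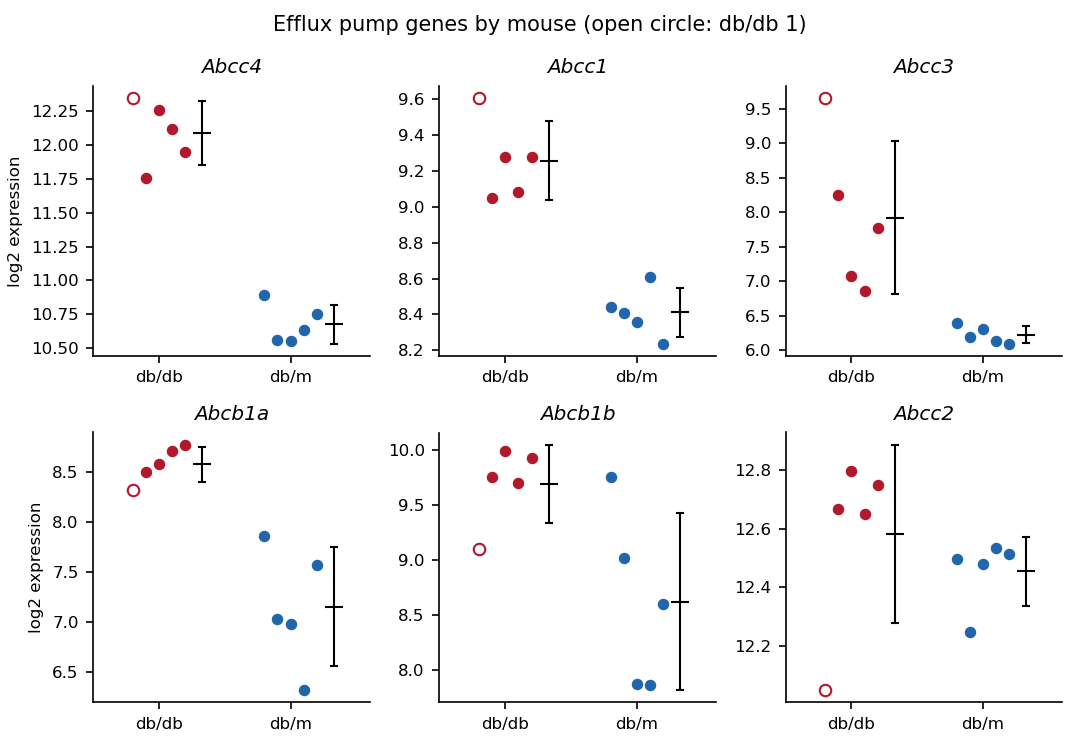
Log2 expression of 6 efflux pump genes (vertical axes) in each db/db mouse (red, left) and each db/m mouse (blue, right), with the mean and SD as black bars. The groups are apart for Abcc4, Abcc1, Abcc3 and Abcb1a, and the open circle, db/db 1, is the highest db/db value for Abcc3 and the lowest for Abcc2.

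Among the ABCB genes the P-glycoprotein genes stood out by size. Mice have a pair of them, Abcb1a and Abcb1b, side by side with Abcb4 on chromosome 5, and the protein exports many lipophilic drugs. Abcb1a measured 8.32, 8.50, 8.58, 8.71 and 8.78 in db/db and 7.87, 7.03, 6.98, 6.32 and 7.57 in db/m. The db/db mice lay close together (SD 0.18) and the db/m mice did not (SD 0.60). Abcb1a rose 2.68-fold (1.42 ± 0.25, limma adjusted p = 0.0108). Abcb1b measured 9.10, 9.75, 9.99, 9.69 and 9.92 in db/db and 9.75, 9.02, 7.87, 7.86 and 8.59 in db/m. Its groups overlapped, because db/m 1 was as high as the db/db mice, and its change of 1.07 ± 0.35 did not pass (limma adjusted p = 0.106), nor did it without db/db 1 (1.22 ± 0.35, adjusted p = 0.05004). Of the fits with 1 array left out it passed in that without db/m 1, with a change of 1.35, and with all arrays it passed under array weights (1.27, adjusted p = 0.0383). The genes are close copies, and whether their probes respond to both transcripts was not tested.

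The remaining ABCB genes did not pass in either fit. Abcb4 encodes the exporter of phosphatidylcholine into bile and measured 6.44 ± 0.21 in db/db and 6.42 ± 0.10 in db/m (SD, n = 5 each). The mitochondrial transporter genes Abcb6, Abcb8 and Abcb10 had changes of -0.12, -0.11 and -0.14, with limma adjusted p of 0.609, 0.703 and 0.556. In each of these 3 genes db/db 1 was lower than all other mice, for instance 8.51 for Abcb8 against 9.23 to 9.28 in the other db/db mice and 9.10 to 9.31 in db/m. The lysosomal peptide transporter gene Abcb9 was at 0.03 ± 0.15, and the bile salt pump gene Abcb11, a liver gene, was dim.

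Abcg2 and Slc47a1 did not pass in either fit. Abcg2, whose protein exports urate and sulfated conjugates at the luminal membrane, measured 13.06, 13.24, 13.22, 13.22 and 13.27 in db/db and 13.26, 13.28, 13.25, 13.31 and 13.27 in db/m. Its change was -0.07 with a 95% interval of -0.21 to 0.06 (limma adjusted p = 0.537). Slc47a1, which encodes the organic cation exchanger MATE1, measured 12.89, 13.36, 13.49, 13.43 and 13.42 in db/db and 13.47, 13.60, 13.57, 13.57 and 13.46 in db/m. The change was -0.21, with an interval of -0.46 to 0.03 (limma adjusted p = 0.298), and db/db 1 was again the lowest mouse. Without db/db 1 the change of Slc47a1 was -0.11 ± 0.06 (limma adjusted p = 0.290). Whether differences are compressed near the top of the scale was not tested.

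Among the UGT genes the calls were lower in db/db. Of 9 genes 4 fell and 0 rose with all arrays, beside 3.54% of all genes lower and 2.96% higher. The median change of the 9 was -0.38. Ugt8a encodes the galactosyltransferase that makes galactosylceramide, the precursor of sulfatide. It measured 9.67, 9.94, 9.29, 10.18 and 10.33 in db/db and 10.96, 10.82, 11.17, 11.01 and 11.04 in db/m. No db/db mouse reached the db/m range. The fall was 2.17-fold (-1.12 ± 0.18, limma adjusted p = 0.00755) and survived the removal of every single array. Ugt2a3, which in humans glucuronidates bile acids, measured 3.76, 4.63, 4.37, 5.41 and 5.31 in db/db and 5.43, 6.66, 6.40, 6.06 and 5.79 in db/m. The closest mice were 5.41 in db/db and 5.43 in db/m. It fell 2.59-fold (-1.37 ± 0.34, limma adjusted p = 0.0402), and 2.20-fold without db/db 1, its lowest mouse (-1.14 ± 0.29, adjusted p = 0.0297). Its mean over all arrays was dim, so that the size of the fall is approximate.

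Ugt2b37 and Ugt2b38 fell by smaller amounts. Ugt2b genes are close copies, and whether probes of one respond to transcripts of another was not tested. Ugt2b37 measured 12.67, 12.28, 11.82, 12.50 and 12.89 in db/db and 13.10, 13.17, 13.06, 13.18 and 13.08 in db/m. The db/m mice lay within a narrow band and the db/db mice spread below it (SD 0.41 and 0.06). The fall was 1.61-fold (-0.69 ± 0.17, limma adjusted p = 0.0415). Ugt2b38 measured 12.66, 12.99, 12.97, 13.08 and 13.15 in db/db and 13.23, 13.46, 13.35, 13.41 and 13.31 in db/m, a 1.30-fold fall (-0.38 ± 0.10, limma adjusted p = 0.0439). Without db/db 1 the changes of Ugt2b37 and Ugt2b38 were -0.75 and -0.31. The calls of Ugt2a3, Ugt2b37 and Ugt2b38 held in 4, 3 and 2 of the 10 fits with a single array dropped, and the largest adjusted p were 0.105, 0.0961 and 0.105. All 3 calls were lost without db/db 2 and without db/m 2, 3, 4 or 5, and the sign stayed negative in all 10. Their groups did not overlap in the full data.

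Ugt2b34 was above every db/m mouse in 4 of 5 db/db mice. It measured 10.07 in db/db 1 and 11.61, 11.87, 12.09 and 11.51 in db/db 2 to 5, against 10.63, 10.78, 10.24, 10.52 and 10.22 in db/m. With all arrays its change of 0.95 ± 0.33 did not pass (limma adjusted p = 0.126). Without db/db 1 it rose 2.45-fold (1.29 ± 0.15, adjusted p = 0.000889). Ugt3a2, which in humans uses UDP-glucose and UDP-xylose, measured 13.32 to 13.53 in db/db and 13.54 to 13.62 in db/m. Its groups were apart, but the change of -0.13 ± 0.06 did not pass (limma adjusted p = 0.266). Ugt2b5 had a change of -0.43 ± 0.23 with overlapping groups (limma adjusted p = 0.307), and Ugt2b1 and Ugt2b36 were dim.

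**Figure D3:**
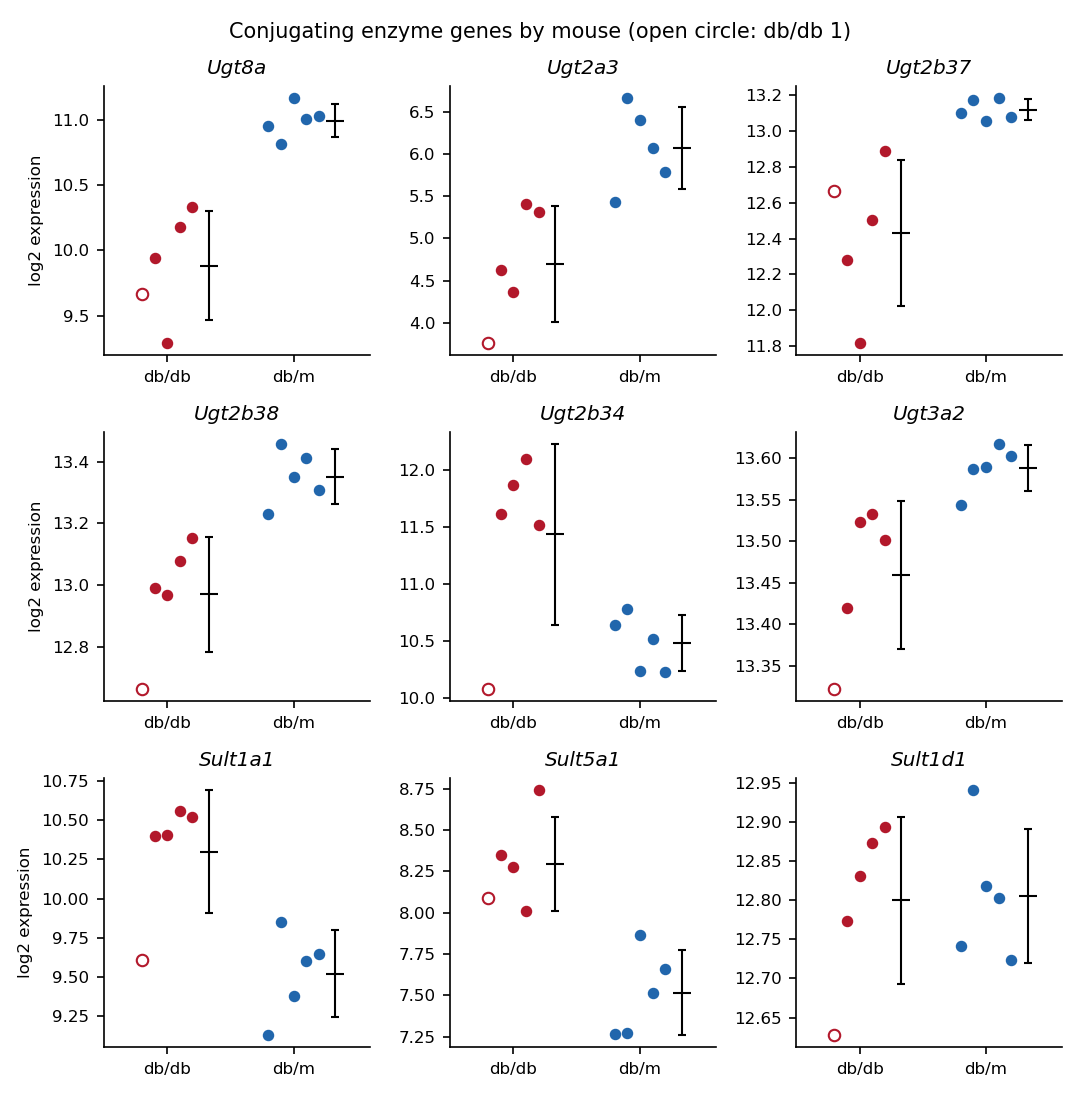
Log2 expression of 9 conjugating enzyme genes (vertical axes, each with its own range) in each db/db mouse (red, left) and each db/m mouse (blue, right), with the mean and SD as black bars. Ugt8a, Ugt2a3, Ugt2b37 and Ugt2b38 are lower in every db/db mouse, Ugt2b34 and Sult1a1 are higher in all db/db mice but db/db 1 (open circle), Sult5a1 is higher in every db/db mouse, and the Sult1d1 groups overlap.

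Most of these UGT genes and 3 of the SULT genes are neighbours. In the RefSeq gene table (GRCm38.p6) a run of 13 protein-coding genes on chromosome 5, from Ugt2b34 to Sult1e1, holds only Ugt2 and Sult1 genes, and 10 of them were measured. Of these 3 fell and 0 rose with all arrays, beside 3.54% of all genes lower and 2.96% higher. Without db/db 1, 3 fell and 1 rose, beside 5.93% of all genes lower and 6.84% higher. Along the chromosome Ugt2b34, at one end, was the gene that rose without db/db 1, and Ugt2b37, Ugt2a3 and Ugt2b38, which follow each other, were those that fell. Sult1b1 and Sult1d1, which lie beyond Ugt2b38 with the unmeasured Ugt2a1 and Ugt2a2 between, did not pass in either fit.

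**Figure D4:**
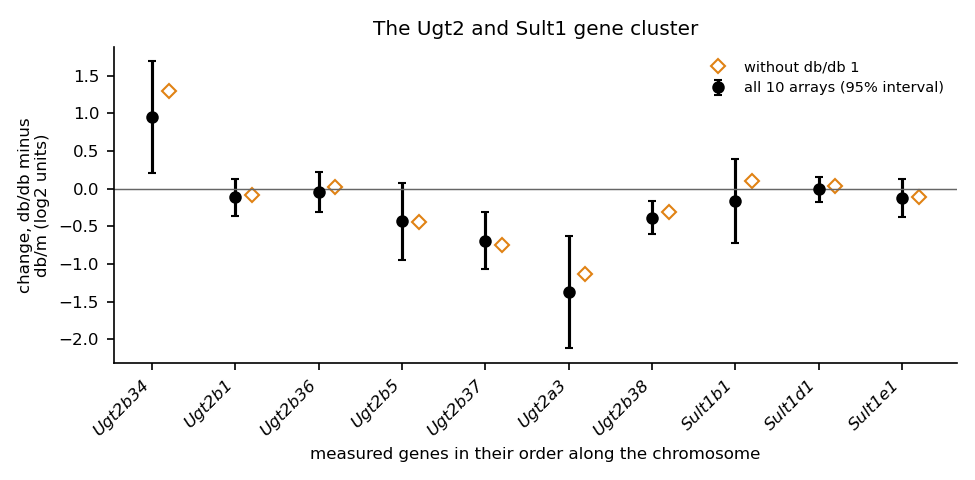
Change in db/db minus db/m, in log2 units (vertical axis), of the 10 measured genes of the Ugt2 and Sult1 cluster in their order along the chromosome. Circles with 95% intervals are all 10 arrays and diamonds the fit without db/db 1; Ugt2b34 is above 0, Ugt2b37, Ugt2a3 and Ugt2b38 are below it, and Sult1d1 is at 0.

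The sequences before the start sites differ between Ugt2b37 and Ugt2b38, which fell, and Ugt2b34, which rose without db/db 1, and they are shown for that reason. Promoter windows were available for 33 of the 41 genes (RefSeq, GRCm38.p6, from 250 bases before to 50 after each start). Aligned end to end, the windows of Ugt2b37 and Ugt2b38 were identical at 87.3% of alignment columns, those of Ugt2b37 and Ugt2b34 at 55.7%, and those of Ugt2b38 and Ugt2b34 at 53.0%. The window of Ugt2b5, a gene that did not pass, was identical at 84.2% of columns to that of Ugt2b38 and at 76.5% to that of Ugt2b37. That of Ugt2a3, which also fell, was identical to that of Ugt2b37 at 48.6%, below the value for Ugt2b34. Ugt2b36 and Ugt2b1, which were dim and did not pass, were at 61.2% and 53.2% to Ugt2b37. The 250 bases before the start are printed 5′ to 3′ on the gene's strand, which is the minus strand for all 3: chr5:87254789-87255038 for Ugt2b37, chr5:87424204-87424453 for Ugt2b38 and chr5:86906938-86907187 for Ugt2b34. Capitals mark the longest run of letters that Ugt2b37 and Ugt2b38 share, of 82 bases. The windows of Ugt2b34 and of Ugt2a3 each share no more than 7 bases in a row with that run. That of Ugt2b5 shares 62, that of Ugt2b36 shares 22 and that of Ugt2b1 shares 8.
Ugt2b37: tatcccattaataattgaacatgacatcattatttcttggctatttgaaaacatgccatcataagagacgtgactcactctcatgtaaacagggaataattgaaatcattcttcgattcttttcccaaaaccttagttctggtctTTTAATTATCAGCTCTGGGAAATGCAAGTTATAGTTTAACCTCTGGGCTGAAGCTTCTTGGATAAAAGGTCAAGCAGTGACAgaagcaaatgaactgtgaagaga
Ugt2b38: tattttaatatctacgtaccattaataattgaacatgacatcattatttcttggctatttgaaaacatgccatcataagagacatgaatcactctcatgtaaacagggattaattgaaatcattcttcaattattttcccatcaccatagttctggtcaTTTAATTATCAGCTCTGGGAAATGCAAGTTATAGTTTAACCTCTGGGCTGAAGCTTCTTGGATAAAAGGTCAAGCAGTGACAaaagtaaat
Ugt2b34: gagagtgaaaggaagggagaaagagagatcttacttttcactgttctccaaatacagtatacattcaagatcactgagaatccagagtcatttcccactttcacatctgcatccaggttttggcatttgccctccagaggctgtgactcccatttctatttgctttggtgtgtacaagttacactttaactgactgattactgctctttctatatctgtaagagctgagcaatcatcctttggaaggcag

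Motif letters were counted in the same windows, on both strands. The core of the antioxidant response element, TGACNNNGC, through which NRF2 acts, was in windows of 4 of 33 genes (Abcb1a, Abcc2, Abcc4 and Abcc10), and in 14% of all 27025 genes with a window. The core of the dioxin response element, GCGTG, was in 8 of 33 genes and 35.2% of all genes. A pair of the nuclear receptor half-site AGGTCA with 1 base between was in 0 of 33 and 0.0481% of all genes. Both windows of Abcc10, which did not pass (-0.20, limma adjusted p = 0.439), hold the TGACNNNGC letters. Abcc4, the pump gene with the smallest adjusted p, also holds them in both of its windows. There they lie at -23 on its own strand in the first and at -25 on the opposite strand in the second, counted from the start. The second also holds the GCGTG letters on the opposite strand at -101 and -94, and no matches overlap. The 250 bases before each start are shown on the minus strand, chr14:118676932-118677181 and chr14:118706220-118706469, with motif letters in capitals. These matches describe letters and do not show binding.
Abcc4, first window: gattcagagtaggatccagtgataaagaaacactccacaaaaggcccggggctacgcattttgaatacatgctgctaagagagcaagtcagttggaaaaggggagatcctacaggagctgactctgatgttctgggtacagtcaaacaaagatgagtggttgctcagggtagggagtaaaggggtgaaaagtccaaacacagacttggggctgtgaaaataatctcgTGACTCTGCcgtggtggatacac
Abcc4, second window: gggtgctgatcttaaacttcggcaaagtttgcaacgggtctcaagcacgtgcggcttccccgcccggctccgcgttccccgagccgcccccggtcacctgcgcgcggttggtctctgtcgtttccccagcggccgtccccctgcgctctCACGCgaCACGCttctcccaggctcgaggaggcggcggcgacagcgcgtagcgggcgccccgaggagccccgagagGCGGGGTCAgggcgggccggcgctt

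Of the 12 SULT genes 7 were dim, 2 rose and 0 fell in db/db, beside 2.96% of all genes higher and 3.54% lower. Sult1a1, the main sulfotransferase of phenols, measured 9.61, 10.40, 10.40, 10.56 and 10.52 in db/db and 9.13, 9.85, 9.38, 9.60 and 9.65 in db/m. The 4 db/db mice other than db/db 1 were above every db/m mouse, and db/db 1 was within the db/m range. It rose 1.71-fold (0.78 ± 0.20, limma adjusted p = 0.0447), and 1.93-fold without db/db 1 (adjusted p = 0.00201). The call held in 2 of the 10 fits with a single array dropped, those without db/db 1 and without db/m 2, and the adjusted p reached 0.114 without db/m 3. It was also lost with each array centred on its median (0.71, adjusted p = 0.0767) and with quantile normalisation repeated (0.76, adjusted p = 0.0539). Sult5a1, a sulfotransferase gene whose substrates are little known, measured 8.09, 8.35, 8.28, 8.01 and 8.74 in db/db and 7.27, 7.27, 7.86, 7.52 and 7.66 in db/m. The groups did not overlap. It rose 1.72-fold (0.78 ± 0.16, limma adjusted p = 0.0201), a call kept in 8 of the 10 fits and lost without db/m 4 and without db/db 2 (adjusted p up to 0.0510).

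The other SULT genes that were not dim did not pass. Sult1d1, which sulfates catecholamines in mice, measured 12.63, 12.77, 12.83, 12.87 and 12.89 in db/db and 12.74, 12.94, 12.82, 12.80 and 12.72 in db/m, with a change of -0.01 and an interval of -0.17 to 0.16. Sult1c2 had a change of -0.01 with an interval of -0.23 to 0.20. Sult1b1, a sulfotransferase of thyroid hormones, was at 8.22 in db/db 1 and 9.35 to 9.67 in the other db/db mice, against 9.26 to 9.60 in db/m, and did not pass (-0.16 ± 0.25, limma adjusted p = 0.761).

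Many members were dim. A gene was called dim where its mean over the 10 arrays was in the lowest 25% of all genes, below 5.71. This held for 13 of the 41 genes: Ugt2a3, Ugt2b1, Ugt2b36, Abcb11, Abcc8, Abcc12, Sult1c1, the oestrogen sulfotransferase gene Sult1e1, the bile acid sulfotransferase gene Sult2a8, the cholesterol sulfotransferase gene Sult2b1, Sult3a1, the brain gene Sult4a1 and Sult6b1. A panel of 16 genes of other organs, such as hormone and sperm genes, had a median of 4.00 and a highest mean of 5.98, and 13 of them were dim by the same rule. Besides Ugt2a3, no dim member passed, with limma adjusted p from 0.522 to 0.953. Of these, 0 were at an unadjusted limma p under 0.05, beside 3547 of all 16475 genes. Near background a difference can be understated. Of the 28 members that were not dim 5 rose and 3 fell, or 28.6%, beside 8.13% of all genes that were not dim.

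Genes that supply the donors, and regulators, were described from lists of related genes. Over all genes 2.96% were higher and 3.54% lower with all arrays. Of 9 genes for making, moving and recycling UDP-glucuronic acid 1 fell and 0 rose: Entpd4, whose protein splits UDP in the Golgi and lysosomes, measured 12.13 ± 0.21 in db/db and 12.70 ± 0.08 in db/m (SD, n = 5 each), a change of -0.58 ± 0.10 (limma adjusted p = 0.0109). With all arrays 4 of these 9 genes were at an unadjusted limma p under 0.05, beside 3547 of all 16475 genes. Without db/db 1, 2 of the 9 fell, beside 5.93% of all genes. Of 10 genes for sulfate activation and desulfation 0 passed in limma, 0 also at an unadjusted p under 0.05. Of 14 regulators and membrane scaffolds 1 rose. Nr1i2, which encodes the drug-sensing nuclear receptor PXR, a known activator of P-glycoprotein and conjugating enzyme genes, measured 7.93, 7.72, 7.51, 7.48 and 7.74 in db/db and 7.09, 7.02, 6.74, 6.48 and 6.77 in db/m. It rose 1.81-fold without overlap (0.85 ± 0.13, limma adjusted p = 0.00598) and stayed called whichever single array was dropped. The other 13 had changes from -0.30 to 0.26 and did not pass. Of 8 enzymes known as NRF2 targets 0 rose and 2 fell, the glutathione synthesis genes Gclm (-0.60 ± 0.08, limma adjusted p = 0.00224) and Gclc (-0.63 ± 0.16, limma adjusted p = 0.0439). The Gclc call held in 2 of the 10 fits.

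Cell type markers moved beside these results. Their counts stand beside 6.51% of all genes that passed with all arrays and 12.8% without db/db 1. The mean over 7 markers of the S3 segment of the proximal tubule was 9.74 to 10.68 in db/db and 12.06 to 12.70 in db/m, and 4 of the 7 fell. Markers of the S1 and S2 segments were at 13.02 to 13.07 in db/db 2 to 5 and 12.13 in db/db 1, against 12.75 to 12.95 in db/m, and 0 of 8 passed with all arrays. Of 8 loop and distal tubule markers 1 rose and 1 fell, and of 8 collecting duct, 8 endothelial and 7 leukocyte markers 0 passed. Without db/db 1, 4 loop and distal tubule markers rose and 1 fell, 4 collecting duct markers and 1 endothelial marker rose, and 0 leukocyte markers passed. In that fit 5 S3 markers fell, and 1 S1 and S2 marker, 6 podocyte and 2 hepatocyte markers rose. Of 7 injury markers 4 rose in either fit. The mean over the 7 was 9.01 to 10.31 in db/db 2 to 5 and 12.58 in db/db 1, against 8.18 to 9.42 in db/m. These means overlapped between the groups. In 4 of the 7 genes the groups did not overlap in either fit, beside 10.2% of all genes with all arrays and 15.4% without db/db 1. Of 6 podocyte markers 4 rose, with means of 9.17 to 9.62 in db/db and 8.85 to 9.08 in db/m. Collecting duct markers were at 10.39 to 10.75 in db/db 2 to 5 and 8.92 in db/db 1, against 9.86 to 10.27 in db/m. Endothelial markers were at 9.28 to 9.59 in db/db and 9.30 to 9.47 in db/m, and loop and distal tubule markers at 11.92 to 12.17 in db/db 2 to 5 and 10.70 in db/db 1, against 11.72 to 12.04 in db/m. A list of 8 hepatocyte markers, several of which tubules also express, was at 9.45 to 10.33 in db/db and 9.51 to 9.99 in db/m, and 1 of them rose. None of the tubule, podocyte or endothelial markers was dim. The part of these shifts in the falls of the UGT genes and the rises of the pump genes was not tested.

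In db/db 1 the members split. It was lower than all other mice in 23 of the 41 genes and higher in 5, beside 41.6% and 19.9% of all genes. Abcc3 was 3.43 above the db/m mean in this mouse, Abcc4 1.67 and Abcc1 1.19. The differences were -2.67 for Abcc9, -2.30 for Ugt2a3, -1.33 for Ugt8a and -0.40 for Ugt2b34, which was high in the other db/db mice. The falls of Ugt8a, Ugt2a3, Ugt2b37 and Ugt2b38 and the rises of Abcc4, Abcc1, Abcb1a and Sult5a1 were seen both in this mouse and in the other 4. Sult1a1 was 0.95 above the db/m mean in the other 4 and 0.08 above it in this mouse. Of the 41 genes 17 differed in sign between this mouse and the other 4. Among these 17, Ugt2b34, Abcc2 and Abcc6 had a mean difference of over 0.25 in the other 4 mice.

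**Figure D5:**
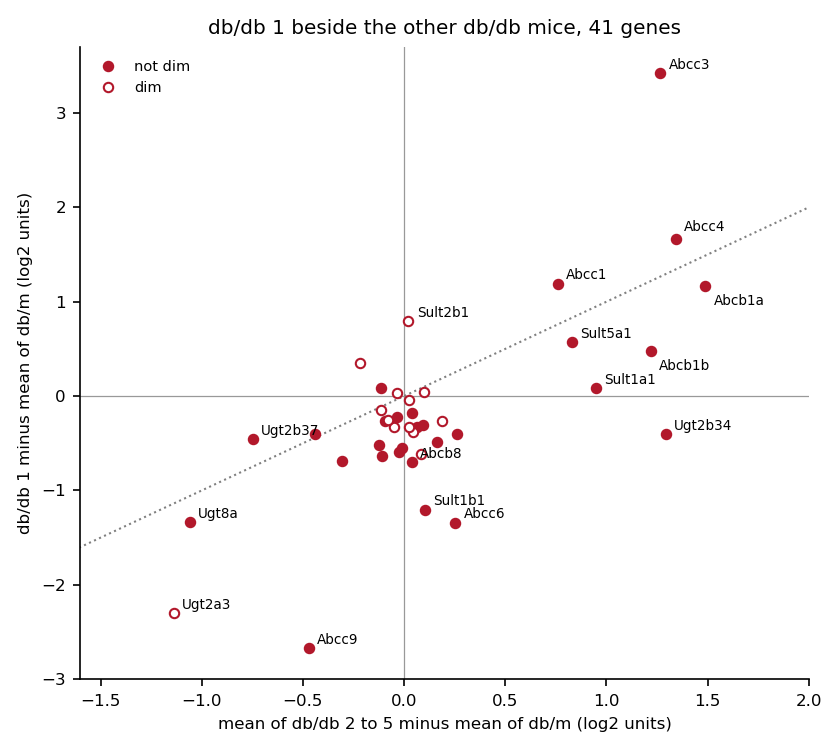
Difference from the db/m mean, in log2 units, of db/db 1 (vertical axis) and of the mean of db/db 2 to 5 (horizontal axis) for the 41 genes; both axes share the db/m mice, and the dotted line marks equal differences. Abcc3 lies far above the line, Abcc9 and Ugt2b34 below it, and Abcc4 and Ugt8a near it; open circles are dim genes.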

How the data were processed

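Gene expression was measured in 5 db/db and 5 db/m mice, 1 array each; nothing in the labels states pooling. The deposited log2 values were made by the authors with RMA, per the submitters' processing notes, which corrects background, normalises between arrays and summarises probes; no source used here gives its version or how probes were grouped by Entrez Gene ID. The table had 16475 gene rows and 64 Affymetrix control rows, which were left out. Symbols came from the supplied annotation (15780 rows named, 695 not), and all 41 members matched the RefSeq table by Entrez ID. The gene order and promoters are those of GRCm38.p6; the values carry no coordinates.

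The groups were compared as db/db minus db/m with limma 3.58.1 in R 4.3.3 (lmFit and eBayes, two-sided), with Benjamini-Hochberg adjustment over all 16475 genes and a threshold of 0.05. Changes are given ± standard error and intervals are limma's moderated 95% intervals. Dim genes stayed in the fit, and the number of arrays limits precision. No arrays were copies: the largest difference between 2 arrays was at least 3.07 log2 units in all 45 pairs. The fit was tested on simulated data with 200 changed genes. It recovered 36 of 100 genes changed by 0.5 log2 units and 75 of 100 changed by 1, with 7 false calls. A gene that did not pass can thus have changed by such amounts. The simulated noise was independent between genes and held no array that stood apart, unlike db/db 1. Any member could be named, with values by mouse for members that passed with all arrays or without db/db 1 and for the brightest member of a family where none passed; from related lists only called genes were to be named. Outside this rule, values by mouse of Abcb1b, Abcg2 and Sult1d1 and the levels of Eif2s3y and Xist were added after their values were seen. The members and lists were chosen with earlier results of these data known. The alternatives were each array left out, the mouse number as a block, dim genes left out, repeated quantile normalisation, median centring, trend and robust settings, array weights, control rows kept, an adjusted p under 0.01 and at least a 1.5-fold change. Mouse numbers did not pair the groups (0 of 5 same-numbered pairs correlated above 0.1). Python 3.11.15 served for tables and matplotlib 3.10.9 for plots.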

Additional observations from a re-analysis of the deposited data

Results flagged for a closer look

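In groups of 5 mice a value was singled out where its gap to the nearest mouse, divided by the range of the group, was above 0.71 (Dixon's criterion). This happened in 13 of 82 groups examined, and chance alone gives about 1 in 20. Of the 13, 10 were db/db 1. It was the lowest mouse of the db/db group for Abcb6 (gap ratio 0.882), Abcb8 (0.940), Abcc2 (0.800), the dim gene Abcc8 (0.880), Abcg2 (0.791), Slc47a1 (0.776), Sult1a1 (0.834), Sult1b1 (0.778) and Ugt2b34 (0.713), and the highest for the dim gene Sult4a1 (0.890). The other 3 were in the db/m group: db/m 2 was low for Abcc2 (0.810), and db/m 1 was low for Abcb11 (0.873) and high for Sult3a1 (0.748), both of which were dim. Of these genes, Sult1a1 passed with all arrays, and Abcc2 and Ugt2b34 passed when db/db 1 was left out.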

How the results depend on the processing

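With all arrays 5 members were higher and 4 lower, 10 had groups apart and 13 were dim, and of all genes 488 were higher and 584 lower. Leaving out 1 array in turn gave 3 to 8 members higher, 1 to 4 lower and 10 to 14 apart, and 234 to 1127 genes higher and 256 to 977 lower. The highest counts came without db/db 1 and the lowest for all genes without db/m 3. Abcc4, Abcc1, Abcb1a and Ugt8a kept the call in all 10 of these fits, and 5 members lost it in at least 1, with no change of sign. Abcb1a lost it with the mouse number as a replicate block (limma adjusted p = 0.0540) and at an adjusted p under 0.01 (0.0108). Abcc4, Abcc1 and Ugt8a kept it under both. With the mouse number as a replicate block 4 members were higher and 1 lower, and 180 genes higher and 213 lower; the numbers did not pair the mice, and no db/db mouse correlated best with its own number (0 of 5). Array weights gave 8 members higher, and 1346 genes higher and 1295 lower. An adjusted p under 0.01 left 2 members higher and 1 lower, and 132 genes higher and 147 lower; at least a 1.5-fold change left 311 genes higher and 264 lower. Median centring kept 5 and 4 members and gave 363 genes higher and 751 lower. Groups were apart in 11 members under median centring and in 8 under repeated quantile normalisation. With dim set at the lowest 10% of genes 6 members were dim.

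Changes of sign occurred in 14 members, of which 0 passed in any of these fits. Under median centring Abcb11 was at -0.057, Abcb4 at -0.053 and Abcb9 at -0.037. Under repeated quantile normalisation Abcb4 was at -0.041, Abcb9 at -0.051, Sult1c2 at 0.00237, Sult1d1 at 0.00553 and Sult2a8 at 0.024. Under array weights Abcb11 was at -0.014, Abcb8 at 0.018, Abcc12 at 0.10, Abcc6 at 0.22, Abcc8 at 0.065, Sult1b1 at 0.088, Sult1c2 at 0.079, Sult1d1 at 0.045 and Ugt2b1 at 0.00107. With 1 array left out the ranges that crossed 0 were -0.030 to 0.051 for Abcb11, -0.036 to 0.096 for Abcb4, -0.15 to 0.037 for Abcb8, -0.036 to 0.16 for Abcb9, -0.13 to 0.086 for Abcc12, -0.19 to 0.25 for Abcc6, -0.067 to 0.044 for Abcc8, -0.26 to 0.10 for Sult1b1, -0.067 to 0.064 for Sult1c2, -0.029 to 0.037 for Sult1d1, -0.057 to 0.018 for Sult2a8, -0.00092 to 0.19 for Sult6b1 and -0.10 to 0.034 for Ugt2b36. The cause of these changes was not tested. Abcc3 passed with dim genes left out, repeated quantile normalisation, median centring, trend and robust settings and array weights (adjusted p from 0.0154 to 0.0497). Under array weights Abcb1b and Ugt2b34 also passed (adjusted p of 0.0383 and 0.000712).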
